A study of Homo sapiens with 8 samples.

Results

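The genes described here encode the proteins of the cytosolic ribosome. They are the 81 rows, of 14870 rows in the table of the authors' comparison, whose symbol is RPL, RPS or RPLP with a number and at most a letter A, X or L and a last digit, which leaves out pseudogenes and the RPS6K kinases. Of the 81, 50 carry large-subunit symbols and 31 small-subunit symbols, and 5 of them are paralogues of a core protein (RPL7L1, RPL22L1, RPL26L1, RPL39L and RPS27L). RNA was sequenced from LX-2, a line derived from human hepatic stellate cells, after 72 h in medium with little serum. All 8 samples had TGF-β1, a cytokine under which stellate cells turn to making matrix. The 4 ML290 samples also received 5 µM ML290, a small molecule that activates RXFP1, the receptor of relaxin, and the 4 DMSO samples received the solvent DMSO. A group without TGF-β1 was not analysed here, and all values come from 1 cell line.

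The table holds the group mean of each gene over 4 samples and no value per sample, so neither a spread between samples nor a count of samples showing a direction can be given. Every level below is such a mean, in normalised read counts, and every ratio is ML290 over DMSO. A gene is called where its adjusted p in the authors' deposited table was under 0.05; the test behind that p is not given in the sources used here. Low values fell on even steps, each worth 1 read if libraries were scaled to 1000000 reads, and the step widths then gave a depth of about 19200000 reads for an ML290 library and 21000000 for a DMSO library. On that reading the member with the lowest level, RPL39L, rested on about 267 reads over the 4 ML290 libraries and 368 reads over the 4 DMSO libraries. Of 11 stellate cell markers, DES and LRAT were not listed, and of the other 9 the authors' deposited table called 2 higher and 7 lower with ML290. Of 7 hepatocyte markers SERPINA1 alone was listed, with 1.39 in ML290 cells and 1.63 in DMSO cells in the authors' deposited table. Of 6 leukocyte markers CD68 was higher, with 71.7 in ML290 cells and 35.1 in DMSO cells, CD14 was lower, with 3.59 in ML290 cells and 5.38 in DMSO cells, in the authors' deposited table (adjusted p = 1.48e-05 and 0.0169), and PTPRC, CD3E, MARCO and ADGRE1 were not listed. Of 4 cholangiocyte markers SOX9 was higher, with 42.0 in ML290 cells and 35.2 in DMSO cells, KRT7 was lower, with 1.91 in ML290 cells and 3.43 in DMSO cells, in the authors' deposited table (adjusted p = 0.0421 and 0.000707), and EPCAM and KRT19 were not listed. Of 5 endothelial markers PECAM1, VWF and KDR were listed and did not pass, with a summed mean of 1.25 in ML290 cells and 1.96 in DMSO cells. The part of these genes in the results below was not tested.

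A ribosome is built from a small subunit, which holds the mRNA and reads its codons, and a large subunit, which joins amino acids and passes the chain out through an exit tunnel. Each core ribosomal protein is present in a single copy per ribosome apart from the paired acidic proteins of the stalk, and surplus ribosomal proteins are degraded. In human cells nearly all mRNAs of these proteins begin with a C and a run of pyrimidines, the 5′ terminal oligopyrimidine (TOP) tract, through which mTORC1 and LARP1 control their translation and stability as a set.

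With ML290 the family was shifted upward by a small amount. By the authors' deposited table, 43 of the 81 genes were higher, 1 was lower and 37 did not pass the threshold. As background, 19.5% of all rows were called higher and 15.6% lower, 35.1% in either direction. Of the rows with a mean level of at least 10, called genes made up 25.4% higher and 18.7% lower, 44.2% in either direction. Among the 7344 other rows within the level range of the core ribosomal proteins, 26.2% were called higher and 19.2% lower, 45.4% in either direction. Among the members the share called higher was 53.1%. At an adjusted p under 0.01, 30 members were higher, against 12.9% of all rows, and at an unadjusted p under 0.05, 51 were higher, against 24.1% of all rows. The ratio lay above 1 for 75 members and below 1 for 6, against 52.4% of all rows above 1. The median log2 ratio was 0.18 over the members, a 1.13-fold change, beside 0.02 over all rows and 0.03 over the rows in the same level range. The member with the largest ratio, RPS21, was higher in the authors' deposited table by 1.38-fold, so 0 members reached 1.5-fold, against 6.01% of all rows called higher at that size. The median fold of the 43 higher members was 1.19, against 1.35 for all genes called higher. Summed over the members, the group means came to 15309.9 in ML290 cells and 13269 in DMSO cells, 1.15-fold higher, or 2.19% and 1.89% of the sums of all rows.

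**Figure D1:**
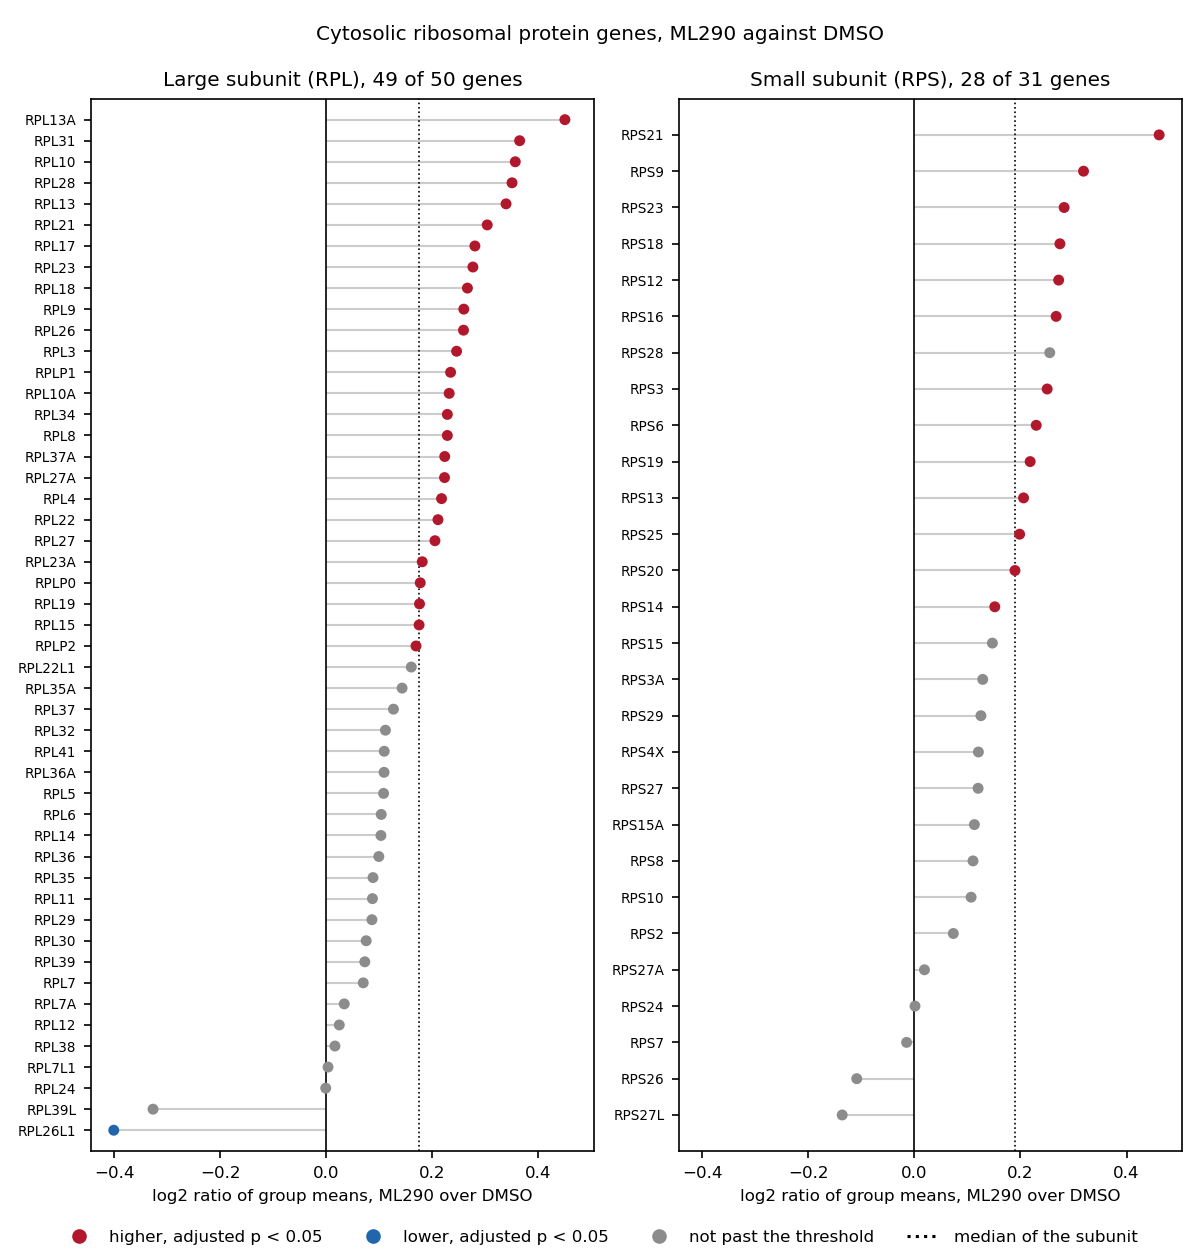
Log2 ratio of group means, ML290 over DMSO, for 49 of the 50 large-subunit and 28 of the 31 small-subunit genes, ordered by ratio within each panel; red points passed the threshold as higher, the blue point as lower and grey points did not pass, and dotted lines mark the medians of all genes of a subunit. The points run from -0.40 for RPL26L1 to 0.46 for RPS21, and 71 of the 77 drawn lie right of 0.

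The ratio and the calls moved with the number of reads behind a gene, for which the level, not divided by length, stands here. Of the 40 members above the family's median level, 27 were higher and 0 lower, all 40 ratios lay above 1 and the median log2 ratio was 0.23. Of the 41 at or below it, 16 were higher and 1 was lower, with a median of 0.13. Across the 76 core proteins, level and log2 ratio had a Spearman rho of 0.36 and a Pearson r of 0.34, over genes that share the same libraries. Transcript length had a rho of 0.14. The part of read depth in which genes passed the threshold was not tested.

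**Figure D2:**
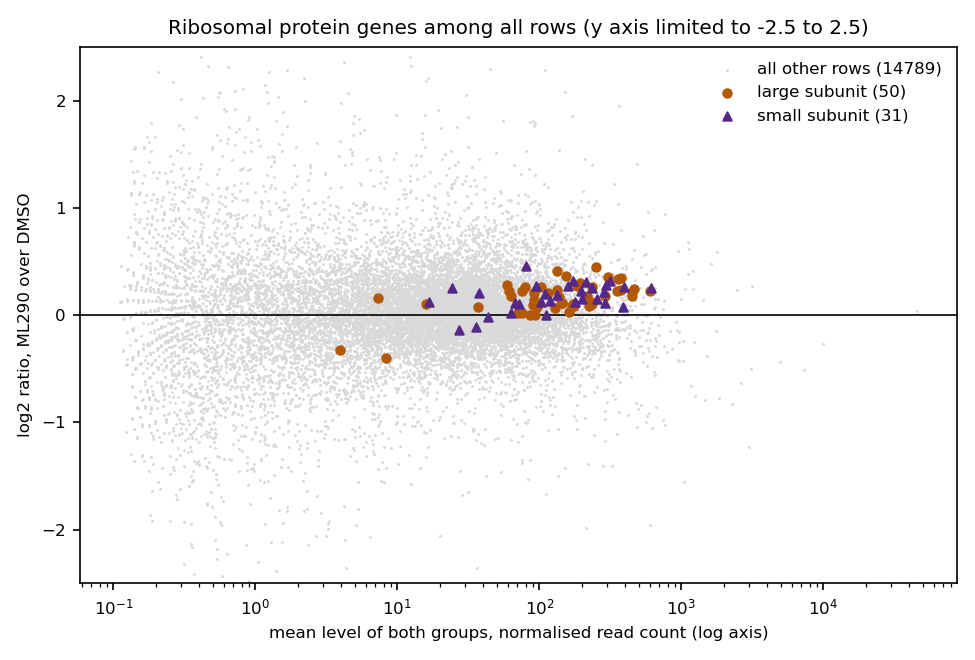
Mean level of both groups (log axis, normalised read counts) against log2 ratio, ML290 over DMSO, for the large-subunit genes (circles), the small-subunit genes (triangles) and all other rows (grey). The ribosomal protein genes lie between -0.40 and 0.46, 75 of the 81 above 0, while other genes of the same level spread further on both sides.

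Large and small subunit had almost equal median ratios. Of the 50 large-subunit genes 27 were higher and 1 was lower, with a median log2 ratio of 0.18, and of the 31 small-subunit genes 16 were higher and 0 lower, with a median of 0.19. The summed means were 9596 in ML290 cells against 8306 in DMSO cells for the large subunit, a ratio of 1.16, and 5714 against 4963 for the small subunit, a ratio of 1.15. Without the paralogues the medians were 0.18 over 46 large-subunit and 0.19 over 30 small-subunit proteins. The medians differed by -0.01, large minus small, and this difference was 0.0013 when the 5 ribosomal genes with other symbols were added. No test of this difference is given, because the genes of a subunit share their samples and are not replicates.

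The list for the surroundings of the peptidyl transferase centre, where peptide bonds form, held 6 proteins that all rose, against 53.1% of the family. These 6 include RPL10A of the more distant L1 stalk, and RPL27, which is not the counterpart of the bacterial L27 at that centre. This list and those of the sites below were chosen with earlier results of these data known. RPL10, which is added late in assembly and reaches toward the P site, had 343.6 in ML290 cells and 268.4 in DMSO cells in the authors' deposited table (adjusted p = 9.65e-05), a 1.28-fold increase. RPL3, a core protein beside the catalytic centre, had 505.4 in ML290 cells and 426.3 in DMSO cells in the authors' deposited table (adjusted p = 0.00213), a 1.19-fold increase. RPL8 had 651.0 in ML290 cells and 555.8 in DMSO cells in the authors' deposited table (adjusted p = 0.0102), a 1.17-fold increase. RPL10A, RPL27 and RPL27A were 1.17-fold, 1.15-fold and 1.17-fold higher by the authors' deposited table.

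Of 8 proteins of the wall and rim of the exit tunnel, 6 rose (75%), against 53.1% of the family. RPL31 at the tunnel rim had 174.7 in ML290 cells and 135.7 in DMSO cells in the authors' deposited table (adjusted p = 0.000245), a 1.29-fold increase. RPL4, whose loop lines the tunnel constriction, had 483.5 in ML290 cells and 415.9 in DMSO cells in the authors' deposited table (adjusted p = 0.00437), a 1.16-fold increase. RPL17, RPL26, RPL23A and RPL19 were between 1.13-fold and 1.21-fold higher by the authors' deposited table. The other two had ratios of 1.06 for RPL35 and 1.05 for RPL39 in the authors' deposited table, with adjusted p values of 0.191 and 0.467.

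The P stalk recruits the elongation factors, and its 3 P proteins rose. RPLP0, the stalk's anchor and a common reference gene for quantitative PCR, had 473.4 in ML290 cells and 418.8 in DMSO cells in the authors' deposited table (adjusted p = 0.0122). RPLP1 and RPLP2 are the acidic proteins that bind to it in pairs. RPLP1 had 405.4 in ML290 cells and 344.7 in DMSO cells, and RPLP2 146.2 in ML290 cells and 130.0 in DMSO cells, in the authors' deposited table (adjusted p = 0.00587 and 0.0411). RPL12, at the base of the stalk, had 71.5 in ML290 cells and 70.3 in DMSO cells in the authors' deposited table (adjusted p = 0.833). RPL5 and RPL11, which carry the 5S rRNA and outside the ribosome can bind MDM2, did not pass. RPL5 had 242.1 in ML290 cells and 224.6 in DMSO cells, and RPL11 176.3 in ML290 cells and 166.0 in DMSO cells, in the authors' deposited table (adjusted p = 0.161 and 0.177).

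Several of the largest increases of the large subunit were in proteins outside these 3 sites. RPL13A, which is also known as part of an interferon-γ-activated complex that silences inflammatory mRNAs, had 287.7 in ML290 cells and 210.6 in DMSO cells in the authors' deposited table (adjusted p = 4.26e-05), a 1.37-fold increase. RPL28, a protein found in eukaryotes only, had 423.0 in ML290 cells and 331.8 in DMSO cells in the authors' deposited table (adjusted p = 0.000574), a 1.27-fold increase. RPL13, at the outer surface of the subunit, had 402.3 in ML290 cells and 318.1 in DMSO cells in the authors' deposited table (adjusted p = 0.000983), a 1.26-fold increase. RPL21 was higher in the authors' deposited table by 1.23-fold. On GRCh38 with GENCODE 29, RPL13A lies on chromosome 19 from 49487554 to 49492308 and RPL10 on chromosome X from 154389955 to 154409168. Both are protein-coding genes.

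On the small subunit, the head, which swivels as the mRNA advances, had 9 of 14 listed proteins higher (64.3%) and 0 lower. Their median log2 ratio was 0.23, and 53.1% of the whole family was higher. RPS3, which lines the mRNA entry and also has a role in DNA repair, had 668.0 in ML290 cells and 561.6 in DMSO cells in the authors' deposited table (adjusted p = 0.00199), a 1.19-fold increase. RPS18, RPS12, RPS16, RPS19, RPS25 and RPS20 were between 1.14-fold and 1.21-fold higher by the authors' deposited table. RPS28 lay just outside the threshold, with 26.3 in ML290 cells and 22.0 in DMSO cells in the authors' deposited table (adjusted p = 0.0507), and the higher member nearest to it on the inside was RPLP2. RPS27A, made as a fusion with ubiquitin, had 63.8 in ML290 cells and 63.0 in DMSO cells in the authors' deposited table (adjusted p = 0.831).

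Of 16 proteins of the body, platform and decoding site, 7 rose (43.8%, against 53.1% of the family) and 0 fell. Their median log2 ratio was 0.12. RPS21 had the largest ratio of the family, with 93.0 in ML290 cells and 67.6 in DMSO cells in the authors' deposited table (adjusted p = 0.000294), a 1.38-fold increase. It lies on chromosome 20 from 62387116 to 62388520 of GRCh38 with GENCODE 29. RPS9, which shapes the mRNA entry and reading accuracy, had 350.1 in ML290 cells and 280.7 in DMSO cells in the authors' deposited table (adjusted p = 0.00121), a 1.25-fold increase. RPS23, at the decoding centre, was 1.22-fold higher and RPS6, the substrate of the S6 kinases, 1.17-fold higher in the authors' deposited table (adjusted p = 0.00103 and 0.00224). RPS13 and RPS14 were 1.15-fold and 1.11-fold higher by the authors' deposited table.

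The 33 core proteins that did not pass still lay mostly above 1. Their ratios ran from 0.93 for RPS26 to 1.19 for RPS28 in the authors' deposited table, and 30 of them exceeded 1. Ratios within 0.02 of 1 belonged to RPL12, RPS27A, RPL38, RPS24, RPL24 and RPS7. RPL24, which joins late in the cytoplasm, had 85.6 in ML290 cells and 85.7 in DMSO cells in the authors' deposited table (adjusted p = 0.976). RPS24 had 111.6 in ML290 cells and 111.5 in DMSO cells in the authors' deposited table (adjusted p = 0.986). RPS26, which contacts the mRNA upstream of the start codon, had 34.5 in ML290 cells and 37.2 in DMSO cells in the authors' deposited table (adjusted p = 0.208). A p that misses the threshold does not show that these mRNAs were the same in both groups.

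Among the paralogues 1 of 5 passed the threshold, RPL26L1, and it went against its core protein. None of the 5 in the family rose, and their ratios ran from 0.76 to 1.12, with a median log2 ratio of -0.14. RPL26L1, a near copy of RPL26 from another gene, was the lower member, with 7.16 in ML290 cells and 9.45 in DMSO cells in the authors' deposited table (adjusted p = 0.00799), a 1.32-fold decrease. RPL26 itself rose, with 111.5 in ML290 cells and 93.2 in DMSO cells in the authors' deposited table (adjusted p = 0.00578), a log2 ratio of 0.26. The log2 ratio of RPL26L1 was thus 0.66 below that of RPL26, and here the changes were in opposite directions. RPL26L1 lies on chromosome 5 from 172958729 to 172969771 and RPL26 on chromosome 17 from 8377516 to 8383250 of GRCh38 with GENCODE 29. 

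RPL39L, known from the mouse as the form of RPL39 used in male germ cells, had 3.49 in ML290 cells and 4.38 in DMSO cells in the authors' deposited table (adjusted p = 0.148). RPL39 had 37.9 in ML290 cells and 36.0 in DMSO cells in the authors' deposited table (adjusted p = 0.467). RPS27L, a p53 target, had 25.8 in ML290 cells and 28.4 in DMSO cells in the authors' deposited table (adjusted p = 0.322), and RPS27 had 17.5 in ML290 cells and 16.1 in DMSO cells (adjusted p = 0.583). In both pairs the ratio was below 1 for the paralogue and above 1 for the core protein, and none of these 4 genes passed. RPL22L1, whose mRNA is known from the mouse to be held down by RPL22, had 7.68 in ML290 cells and 6.87 in DMSO cells in the authors' deposited table (adjusted p = 0.37), while RPL22 had 98.5 in ML290 cells and 85.1 in DMSO cells (adjusted p = 0.0339). RPL7L1, a more distant relative of RPL7, had 93.5 in ML290 cells and 93.3 in DMSO cells in the authors' deposited table (adjusted p = 0.977), beside RPL7 with 131.2 in ML290 cells and 125.0 in DMSO cells (adjusted p = 0.332).

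RPL36AL, a retrogene copy of RPL36A with a symbol outside the pattern, went the other way. It had 123.8 in ML290 cells and 99.4 in DMSO cells in the authors' deposited table (adjusted p = 0.00491), a 1.24-fold increase. RPL36A had 16.5 in ML290 cells and 15.3 in DMSO cells in the authors' deposited table (adjusted p = 0.378). Over the 6 pairs listed, the paralogue had the smaller ratio in 5, and the median difference in log2 ratio was -0.16. RPL26L1, RPL39L and RPL22L1 lay under a mean level of 10, and over the other 3 pairs the median difference was -0.066. The difference within a pair was not tested, since the table gives no value per sample.

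**Figure D3:**
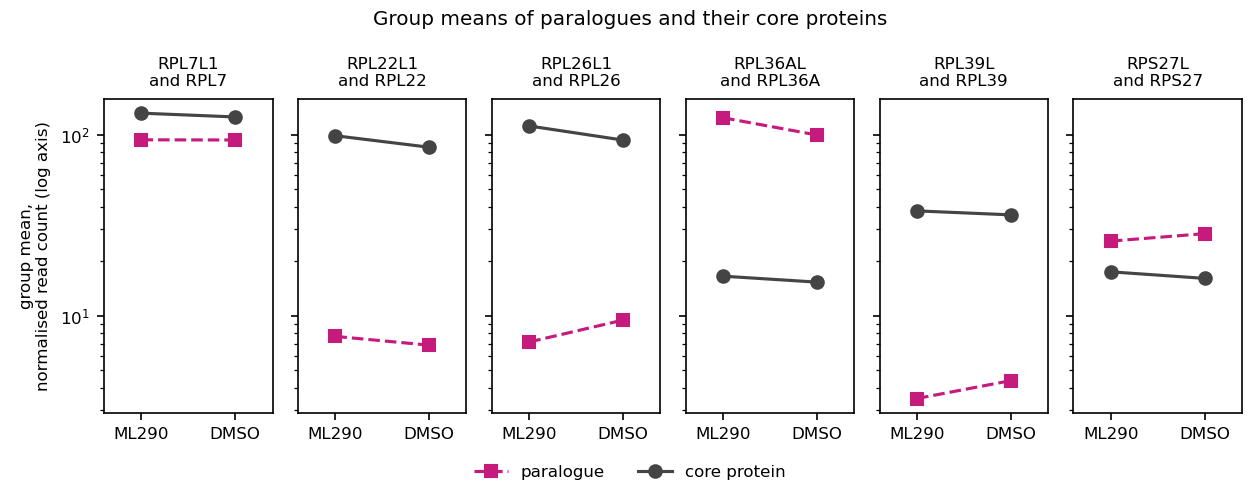
Group means (log axis, normalised read counts) of 6 paralogues (squares, dashed) and their core proteins (circles, solid), ML290 at the left and DMSO at the right of each panel; there are no error bars, because the table gives means only. RPL26L1, RPL39L and RPS27L slope upward toward DMSO while their core proteins slope downward.

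Of the other ribosomal proteins with symbols outside the pattern, RACK1 (listed as GNB2L1), a signalling scaffold on the head of the small subunit, had 387.8 in ML290 cells and 329.3 in DMSO cells in the authors' deposited table (adjusted p = 0.00186), a 1.18-fold increase. FAU, the source of RPS30, had 82.3 in ML290 cells and 73.6 in DMSO cells in the authors' deposited table (adjusted p = 0.0538). RPSA, which doubles as the laminin receptor, had 277.3 in ML290 cells and 288.2 in DMSO cells in the authors' deposited table (adjusted p = 0.38). With all 5 such genes the count was 46 higher and 1 lower of 86.

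Ribosomal protein genes have many processed copies in the genome, which bears on how their reads were assigned. In GENCODE 29, 12 members shared at least 50% of the 100-base stretches of their transcript with a transcript of another annotated gene, readthrough genes included. They include RPL21, RPL17, RPL9, RPL26, RPS3A, RPS27, RPL36A, RPS10, RPL6 and RPL7, and the values of all 12 are uncertain to that extent. Of these 12, 6 were higher and 0 lower, with a median log2 ratio of 0.19, and of the other 69 members 37 were higher and 1 was lower, with a median of 0.18. The 23 members with no shared stretch included 12 higher and 0 lower, with a median of 0.16.

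The table also lists 23 pseudogenes named after a ribosomal protein, 3 of them with a mean level of 10 or more. RPL13AP5 had 701.1 in ML290 cells and 524.3 in DMSO cells in the authors' deposited table (adjusted p = 4.39e-05), a 1.34-fold increase. It accounted for all of the 22.7% of RPL13A's stretches that another gene shared, and both rows together were 1.35-fold higher. RPSAP58 had 242.2 in ML290 cells and 274.2 in DMSO cells in the authors' deposited table (adjusted p = 0.0129). RPSA shared 50.4% of its stretches with other genes, and 37.8% with RPSAP58. Both rows together had a ratio of 0.92. Of the 23 pseudogenes, 4 were higher and 2 lower, beside 19.5% and 15.6% of all rows.

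The starts of these genes show the feature that sets their mRNAs apart. RefSeq promoter windows on GRCh38.p14 were at hand for 65 members. A C followed by at least 4 bases that are each C or T, read in the direction of the transcript only and beginning at an annotated first base, stood in 46 of the 65 (70.8%), against 5.14% of all 27305 genes with a window. Allowing the tract to begin within 5 bases of the start gave 81.5% of the members and 25.2% of all genes. The letters CTTTCC, read in the same direction, within 15 bases of the start stood in 29.2% of the members and 1.98% of all genes. This match can overlap the tract. Over the 11563 genes of the comparison with a window, members included, the tract stood at the start in 7.16% and within 5 bases in 29.2%. CTTTCC stood in 2.46% of them. Shown are 30 bases around the start of 4 genes with large increases, of 3 core genes with ratios near 1, and of some paralogues beside their core genes. Each has 15 bases before the start and the first 15 of the transcript, with a tract at the first base in capitals.
RPS21 (chr20:62387088-62387117, plus strand): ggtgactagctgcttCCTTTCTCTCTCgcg
RPL13A (chr19:49487593-49487622, plus strand): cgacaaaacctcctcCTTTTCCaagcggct
RPL31 (chr2:101002274-101002303, plus strand): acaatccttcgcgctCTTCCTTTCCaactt
RPL28 (chr19:55385917-55385946, plus strand): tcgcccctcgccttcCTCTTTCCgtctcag
RPL24 (chr3:101686704-101686733, minus strand): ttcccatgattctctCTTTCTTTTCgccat
RPS24 (chr10:78033848-78033877, plus strand): cggcgaatcgtggttCTCTTTTCCTCCTTg
RPL38 (chr17:74203663-74203692, plus strand): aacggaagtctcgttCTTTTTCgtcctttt
RPL26 (chr17:8383179-8383208, minus strand): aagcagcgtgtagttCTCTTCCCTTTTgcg
RPL26L1 (chr5:172958714-172958743, plus strand): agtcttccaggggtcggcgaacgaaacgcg
RPS27 (chr1:153990747-153990776, plus strand): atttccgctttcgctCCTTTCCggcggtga
RPS27L (chr15:63157463-63157492, minus strand): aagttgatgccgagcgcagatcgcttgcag
RPL22 (chr1:6199581-6199610, minus strand): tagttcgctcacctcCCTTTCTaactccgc
RPL22L1 (chr3:170870181-170870210, minus strand): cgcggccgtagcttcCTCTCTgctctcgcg

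A tract stood at the first base both in genes with large ratios and in genes with ratios near 1, such as RPS21, with a run of 12 pyrimidines and a log2 ratio of 0.46, and RPS24, with a run of 14 and a log2 ratio of 0.00. Of the 46 members with the tract at the start, 27 were higher and 0 lower, with a median log2 ratio of 0.20. Of the 19 without it there, 8 were higher and 1 was lower, with a median of 0.15. Of the 4 paralogues among the members with a window, RPL22L1 had the tract, and RPL7L1, RPL26L1 and RPS27L did not. RPL36AL, outside the symbol pattern, was called higher and had no tract at the first base, with a run of 3. It did have a tract beginning within 5 bases of the start. RPL36A, its core gene, did not pass and had a run of 10. RPS7, with a ratio of 0.99, had a run of 3 at the first base and likewise a tract beginning within 5 bases. Among the 783 other genes of the table with a tract at the start, 23.4% were higher and 15.7% lower, with a median of 0.05, beside 19.3%, 16.1% and 0.01 for the 10732 without. The annotated starts are not measured in LX-2 cells, and a match is a description of the letters only.

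Other mRNAs that depend on or belong with the ribosome were read from lists chosen with earlier results of these data known. Of 17 further genes listed as having TOP mRNAs, 10 of the 12 with a window had the tract at the start. Of the 17, 9 were higher (52.9%, against 19.5% of all rows) and 0 lower, with a median log2 ratio of 0.18. The nucleolar protein NOP53 (listed as GLTSCR2) had 170.0 in ML290 cells and 91.3 in DMSO cells in the authors' deposited table (adjusted p = 5.44e-07), a 1.86-fold increase. The translationally controlled protein TPT1 had 646.3 in ML290 cells and 438.0 in DMSO cells in the authors' deposited table (adjusted p = 2.12e-06), a 1.48-fold increase, and the initiation factor EIF4B was 1.45-fold higher (adjusted p = 1.80e-06). NOP53, TPT1 and EIF4B had larger ratios than RPS21, the member with the largest.

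Of 13 listed elongation and release factors, 5 were higher (38.5%, against 19.5% of all rows) and 1 was lower. Their median log2 ratio was 0.12. Among rows with a mean level of at least 10, 25.4% were higher and 18.7% lower. EEF2, which moves the ribosome along the mRNA, had 2156 in ML290 cells and 1432 in DMSO cells in the authors' deposited table (adjusted p = 2.23e-05), a 1.51-fold increase. EEF1A1, which delivers aminoacyl-tRNA, had 3456 in ML290 cells and 2856 in DMSO cells in the authors' deposited table (adjusted p = 0.00219), a 1.21-fold increase. EIF5A fell, with 384.9 in ML290 cells and 446.6 in DMSO cells in the authors' deposited table (adjusted p = 0.00353), a 1.16-fold decrease.

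Host genes of small nucleolar RNAs, noncoding transcripts whose introns yield the guides of rRNA modification, had a median log2 ratio above that of the ribosomal proteins. Of 12, 10 were higher (83.3%, against 19.5% of all rows) and 0 lower, with a median of 0.55. The tract stood at the start of 3 of the 10 with a window. SNHG5 had 44.4 in ML290 cells and 24.0 in DMSO cells in the authors' deposited table (adjusted p = 3.92e-07), a 1.85-fold increase. ZFAS1 had 25.9 in ML290 cells and 14.3 in DMSO cells in the authors' deposited table (adjusted p = 1.56e-06), a 1.81-fold increase, and EPB41L4A-AS1 was 2.64-fold higher (adjusted p = 2.57e-07). The difference between this list and the ribosomal proteins was not tested.

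Among 23 listed genes that control ribosomal protein synthesis, 8 were higher (34.8%) and 1 was lower, with a median log2 ratio of 0.17. Of all rows, 19.5% were higher and 15.6% lower. Of the rows with a mean level of at least 10, 25.4% were higher and 18.7% lower, 44.2% in either direction. The translation repressor EIF4EBP1 had 103.9 in ML290 cells and 70.8 in DMSO cells in the authors' deposited table (adjusted p = 6.21e-06), a 1.47-fold increase. TSC1, a brake on mTORC1, was 1.18-fold higher, and the mTORC1 component AKT1S1 1.24-fold higher, in the authors' deposited table (adjusted p = 0.00472 and 0.00523). MAX, the partner of MYC, was higher in the authors' deposited table by 1.33-fold (adjusted p = 8.50e-05). LARP1, which binds the TOP tract, was higher in the authors' deposited table by 1.12-fold (adjusted p = 0.0194). The S6 kinases RPS6KB1, with 24.8 in both groups, and RPS6KB2, with 46.3 in ML290 cells and 45.9 in DMSO cells, did not pass in the authors' deposited table (adjusted p = 0.936 and 0.927). The table gives mRNA levels and says nothing of the activity of these kinases.

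Factors that help ribosomal proteins reach the ribosome were called about as often as all rows. Of 18 chaperones, importers and assembly kinases 4 were higher (22.2%) and 2 lower, with a median log2 ratio of 0.04, against 19.5% and 15.6% of all rows. Among rows with a mean level of at least 10, 25.4% were higher and 18.7% lower. The kinase RIOK3 was 1.28-fold higher, and the importer IPO9 and TSR2, the chaperone of RPS26, had ratios of 0.89 each and fell, in the authors' deposited table (adjusted p = 0.0059, 0.0213 and 0.0271). Of 18 factors of subunit joining, recycling and rescue 9 were higher (50%) and 0 lower, with a median of 0.13. The difference between both lists was not tested. ZNF622, a factor of late large-subunit maturation, had 103.1 in ML290 cells and 66.5 in DMSO cells in the authors' deposited table (adjusted p = 1.36e-05), a 1.55-fold increase. The rescue factor PELO was 1.49-fold higher, the export adaptor NMD3 1.45-fold and ZNF598, the ligase that marks collided ribosomes, 1.34-fold in the authors' deposited table (adjusted p = 1.43e-05, 0.00022 and 0.00233).

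Mitochondrial ribosomal proteins, which are also encoded in the nucleus but serve the ribosome inside mitochondria, had a median log2 ratio just under 0. Of 77 listed, 5 were higher (6.49%) and 10 lower, with a median of -0.03, and 33 had a ratio above 1. Of all rows, 19.5% were higher and 15.6% lower. The summed means of the mitochondrial genes were 2033 in ML290 cells and 2050.4 in DMSO cells. Their median level was 23.7 in ML290 cells and 23.0 in DMSO cells, beside 149.7 and 135.7 for the cytosolic family. The difference between the mitochondrial and the cytosolic proteins was not tested, nor was the part of level in the shares called.

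**Figure D4:**
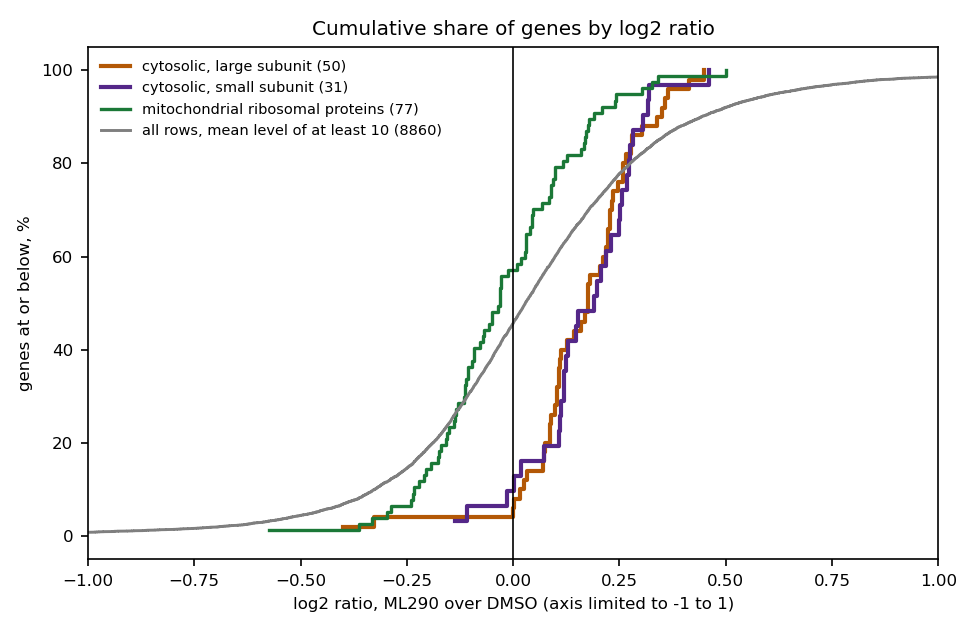
Cumulative share of genes by log2 ratio, ML290 over DMSO, for the large-subunit and small-subunit cytosolic proteins, the 77 mitochondrial ribosomal proteins and the 8860 rows whose mean level was 10 or more. The curves of both cytosolic subunits run together right of the others in the middle of their range, crossing 50% near 0.18, while the mitochondrial curve crosses it near -0.03.

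**Figure D5:**
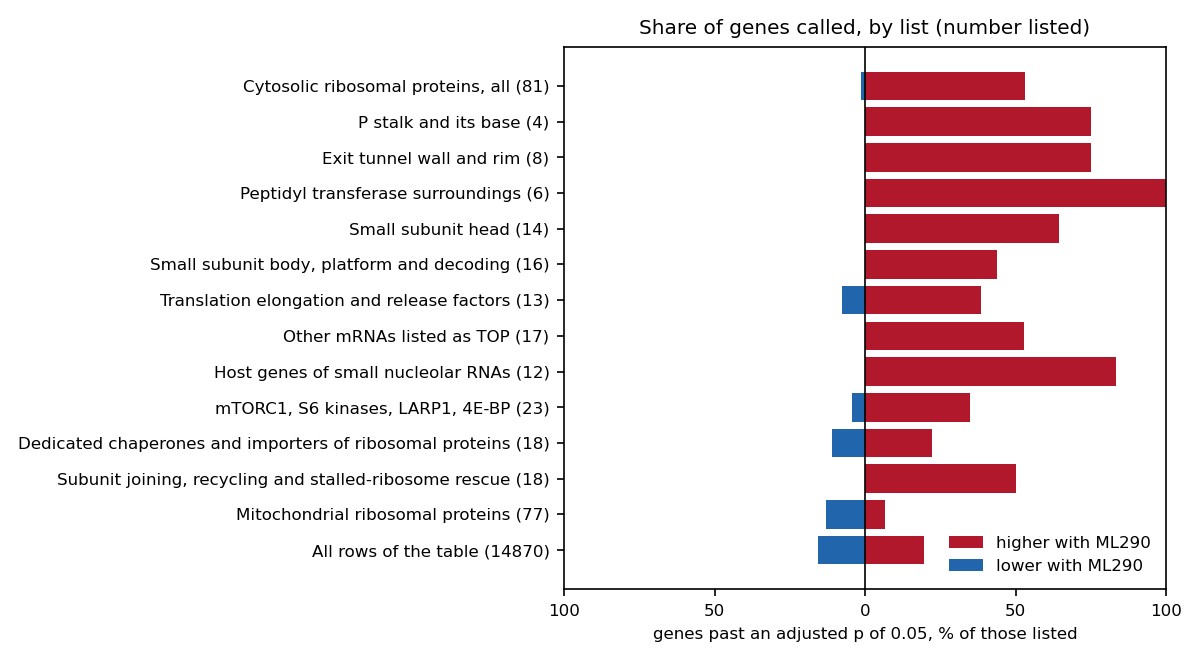
Percentage of the listed genes of each group that passed an adjusted p of 0.05, higher with ML290 to the right and lower to the left, with the number listed in brackets. The bar of the cytosolic ribosomal proteins reaches 53.1% to the right, against 19.5% for all rows and 6.49% for the mitochondrial ribosomal proteins. The median level was lower for the mitochondrial than for the cytosolic ribosomal proteins.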

How the data were processed

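RNA of 4 ML290 and 4 DMSO samples of LX-2 cells was sequenced. The submitters' processing notes name STAR, Partek and the build GRCh38 without a version or role. Not given in the sources used here were annotation, counting, use of strand, filter, normalization and test. The file is 1 table that compares both groups, made by the authors, of 14870 rows. Per the file headers, the authors gave a least-squares mean for each group, treated here as a signal in normalised read counts, and the deposited column of totals is 4 times their sum. The deposited ratio is the quotient of both means, and the signed fold, a score here, is that ratio or its negative inverse. The authors also gave a p-value and, by a step-up procedure, an adjusted p. Columns of values per sample numbered 0, so tests by sample could not be run and every call rests on the authors' adjusted p.

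The read steps were fitted to low group sums, of which 84.1% (778 ML290 values) and 95.1% (761 DMSO values) lay within 0.15 of a whole step; values spread evenly between steps would give 30%. These steps were shared by genes of different length, so levels were taken as not divided by length, and levels of different genes are set against each other only as a measure of the reads behind a gene. The fit was tested on simulated data with a common step, which shows only that it finds such a step. Sums over libraries of unequal depth were not simulated, so the depths and read numbers given were not tested. Members and lists were chosen with earlier results of these data known. All members may be named; of each list, the 2 to 4 genes with the smallest adjusted p were to be named, and LARP1, RPS6KB1, RPS6KB2 and TSR2 were added for their roles after their values were seen. A few genes are not reported here by name and stay in the counts and medians. Older symbols were matched through RefSeq synonyms. Each transcript compared was the shortest best-supported principal one of GENCODE 29. The mean level minimum was 10. Scripts ran under Python 3.11.15 with matplotlib 3.10.9 for figures, and pandas 2.3.3, scipy 1.17.1 and numpy 2.4.6 for computing.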

Additional observations from a re-analysis of the deposited data

How the results depend on the processing

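The count of 44 called members, 43 higher and 1 lower, was 31 at an adjusted p under 0.01 and 52 at an unadjusted p under 0.05. It fell to 24, all higher, under Benjamini-Yekutieli adjustment, which no longer called RPL26L1. Asking for at least 1.5-fold left 0 members by the authors' test, against 6.01% of all rows higher. The family's median log2 ratio stayed between 0.16 and 0.19 over the alternatives run, which were a level filter, other member sets, centring, the mean, and, chosen after seeing the data, leaving out members that share reads. The ratio of summed means stayed between 1.15 and 1.16. The median difference between paralogue and core protein was -0.16 over 6 pairs and -0.066 over the 3 pairs with both genes at a mean level of at least 10. Values were taken as moved past 0.05, since the table gives no spread. No paired analysis was possible because the table holds group means; leaving out replicates and other normalizations could not be run for the same reason. Depth per sample is unknown.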

Other observations

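Diamond-Blackfan anaemia, an inherited failure of red cell formation, is caused by loss of 1 copy of any of several ribosomal protein genes. Of 18 such genes in the list used, 7 were higher (38.9%) and 0 lower with ML290. Higher calls made up 53.1% of the family and 19.5% of all rows. The median log2 ratio was 0.13, beside 0.18 over the family and 0.02 over all rows. Those that rose include RPL31, RPL18, RPL26, RPL27, RPS19 and RPL15, with ratios between 1.13 and 1.29 in the authors' deposited table. RPL35A, RPS29, RPS10, RPL5, RPL11, RPL35, RPS26, RPS27, RPS7, RPS24 and RPS28 did not pass.

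The list of proteins with a bacterial counterpart, the oldest part of the ribosome, had 23 of 34 higher (67.6%) and 0 lower. Its median log2 ratio was 0.22, and 53.1% of the whole family was higher. The list holds RPSA and 33 members, and overlaps the sites described in the report. RPL7A, which did not pass, is on the list although it has no counterpart in the bacterial ribosome. The MDM2 gene, whose product the free RPL5 and RPL11 proteins can bind, had 63.3 in ML290 cells and 40.3 in DMSO cells in the authors' deposited table (adjusted p = 0.000107), a 1.57-fold increase.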
